A study of Rattus norvegicus with 34 samples.

Results

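*B2m*, the gene of the light chain of MHC class I (beta-2-microglobulin), was followed across the retinae of 23 single rats, as 1 of 48 genes on a microfluidic RT-PCR card. The study used *B2m* as 1 of 4 reference genes, and here it was treated as a target. It was chosen by its Cq values in these same rats, which were already known, so its group levels and differences are a description and carry no test. The question was whether *B2m* followed retinal degeneration and intravitreal injection.

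The transgenic PKD rats, strain PKD2(HA-1/703-CMV-247), overexpress a truncated polycystin-2 under a CMV promoter, which is not restricted to one retinal cell type. They are a model in which photoreceptor degeneration is accompanied by glial activation and loss of pericytes. All PKD rats were homozygous males per the study's methods. The 4 groups were 6 uninjected Sprague Dawley (SD) rats, 6 uninjected PKD rats, 5 PKD rats injected with clodronate-coated liposomes (PKD + Clodronate) and 6 PKD rats injected with control liposomes (PKD + Controlliposomes). Injections of 3 µl were given at 4 and 8 weeks of age, and retinae were taken at 9 weeks. Liposomes with clodronate are used to deplete or disturb phagocytes such as microglia, and control liposomes carry no clodronate. Rats of the uninjected groups had no needle or liposome, so injection and liposome cannot be told apart in a comparison with them. PKD and SD rats differ in transgene and strain, and the data hold no measure of degeneration for single rats. Degeneration therefore cannot be told apart from other effects of transgene and strain.

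The light chain pairs with the heavy chains of MHC class I, and without it these molecules do not reach the cell surface, where they present peptides to CD8 T cells. It is made by nearly all nucleated cells, more in microglia, macrophages and endothelial cells than in most neurons, and its gene responds to interferons. In whole retina, a change in the number of such cells and a change in RNA per cell cannot be told apart.

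The promoter of rat *B2m* is shown because 2 kinds of sequence that mark interferon and NF-kappaB response can be read in it. The RefSeq sequence of build GRCr8 on the plus strand, chr3:129549080-129549235, covers 156 bases and ends directly before the annotated start of the gene, which runs from 129549236 to 129555354 on chromosome 3. Capitals mark the matches to both motifs searched on both strands. The core of an interferon-stimulated response element was searched as GAAA, any 2 bases, then GAAA, and a kappaB-like motif as GGG, any 5 bases, then CC.

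*B2m* promoter: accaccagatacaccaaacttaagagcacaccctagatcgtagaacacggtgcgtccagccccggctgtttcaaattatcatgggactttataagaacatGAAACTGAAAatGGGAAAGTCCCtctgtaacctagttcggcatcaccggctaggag

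The interferon motif lay at bases 129549180 to 129549189. The same letters occurred in 709 of 33469 rat promoters, each read over the first 156 bases of its entry (2.12%). They also occurred in 2 of 31 other card genes with a promoter entry, *Fcgr3a* and *Vegfa*. These windows equal that of *B2m* in length but need not end directly before the gene, so all such shares are a rough background. The kappaB-like motif matched on the plus strand at 129549192 to 129549201 and, overlapping it, on the minus strand at 129549193 to 129549202. Its letters are common, with a match in 9326 of 33469 promoters (27.9%) and in 13 of the 31 card genes. A match describes letters in a window and is not a measured binding site.

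Every rat had a Cq for *B2m*, the PCR cycle at which the signal crossed the threshold. The level of *B2m* was the mean Cq of *Mrpl19*, a mitochondrial ribosomal protein, and *Ywhaz*, a 14-3-3 protein, minus the Cq of *B2m*. A difference of 1 in this level stands for a doubling of RNA at full PCR efficiency. In the following, ± is the standard deviation over rats and SD alone names the rat strain. The standard error of a *B2m* difference is from the fit over all 4 groups unless stated.

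In SD rats the level of *B2m* was 1.56, 2.30, 2.32, 2.72, 2.78 and 2.93, with a mean of 2.43 ± 0.498 (n = 6). In PKD rats it was 2.84, 2.89, 3.10, 3.13, 3.21 and 3.46, with a mean of 3.10 ± 0.225 (n = 6). The groups overlapped, since the SD rat with 2.93 lay within the PKD range, while 4 of 6 PKD rats were above every SD rat. Of the 41 other genes tested, 24.4% had no overlap between these groups.

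In PKD + Clodronate rats the level was 3.30, 3.31, 3.53, 3.67 and 3.75, with a mean of 3.51 ± 0.204 (n = 5). In PKD + Controlliposomes rats it was 3.18, 3.25, 3.29, 3.29, 4.27 and 4.49, with a mean of 3.63 ± 0.588 (n = 6). All injected PKD rats were above all SD rats, and 2 control liposome-treated rats stood well above the other 4 and above all rats of the study analyzed here.

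**Figure D1:**
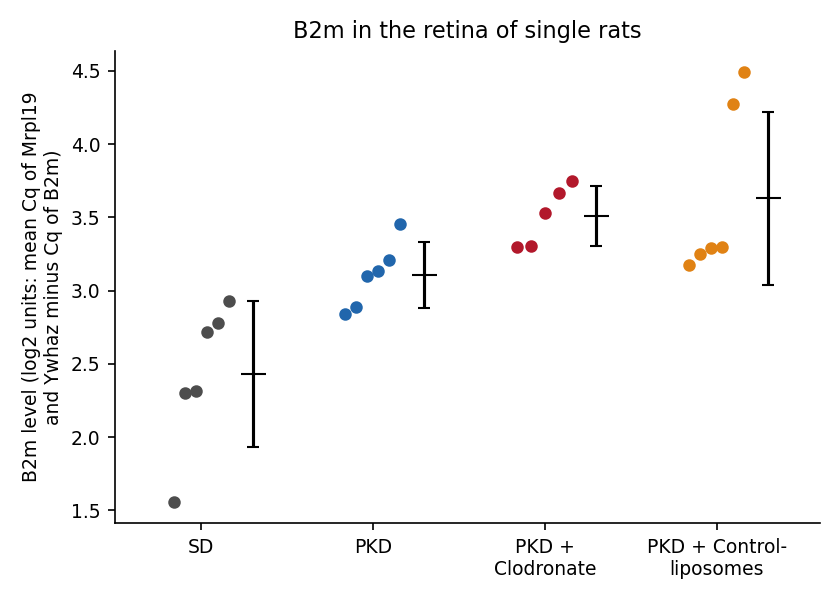
Level of *B2m* in log2 units (mean Cq of *Mrpl19* and *Ywhaz* minus Cq of *B2m*) for each of 23 rats, with the mean and standard deviation of each group beside the points. The SD rats spread from 1.56 to 2.93, the PKD rats from 2.84 to 3.46, and 2 of 6 PKD + Controlliposomes rats lie at 4.27 and 4.49.

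*B2m* was higher by 0.67 log2 units in PKD rats compared to SD rats (standard error 0.263, 1.59-fold), but lower by the specific-gene mean, a scale given further below. All 6 PKD rats were above the SD mean. The SD rat with the lowest *B2m* level also had the lowest Cq of *Mrpl19* (22.5) and of 18S (5.53) among the 23 rats. Without it the difference was 0.495.

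Compared to untreated PKD rats, *B2m* was higher by 0.41 in PKD + Clodronate rats (standard error 0.276, 1.32-fold), and all 5 were above the PKD mean. The spread of only the 2 compared groups gave a standard error of 0.131 here and 0.257 for control liposomes compared to PKD rats. The groups overlapped, with 3 of 5 above every PKD rat. Of the 41 other genes, 2.44% had no overlap, which is a stricter measure than that count. *B2m* was higher by 0.52 in PKD + Controlliposomes rats compared to PKD rats (standard error 0.263, 1.44-fold). All 6 were above the PKD mean, but only the 2 high rats were above every PKD rat. These groups overlapped too, while 14.6% of the other genes had no overlap. The group medians differed by 0.18 for control liposomes and by 0.42 for clodronate, so the control liposome mean rested largely on the 2 high rats. For control liposomes the difference of medians was -0.089 with 18S added to the reference genes, where 2 of 6 rats were above the PKD mean, and -0.087 without normalization.

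Between the injected groups the difference, clodronate minus control liposomes, was -0.12 (standard error 0.276) by the means and 0.24 by the medians, and with 18S added the means gave 0.10. The direction between both liposome groups was therefore not settled by these rats. Against SD rats, *B2m* was higher by 1.08 in PKD + Clodronate rats (standard error 0.276, 2.11-fold) and by 1.20 in PKD + Controlliposomes rats (standard error 0.263, 2.29-fold), with no overlap in either. This did not hold by the specific-gene mean or without normalization. Of the 41 other genes tested, 24.4% had no overlap in the former comparison and 39% in the latter. The comparisons share control rats, the untreated PKD rats or the SD rats, and are not independent. In the order of the 4 means, no neighbouring pair was free of overlap.

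The Cq of *B2m* as measured, before any reference was subtracted, showed the same order of SD and PKD rats. The mean Cq was 17.9 ± 0.325 in SD rats, 17.5 ± 0.242 in PKD rats, 17.2 ± 0.708 in PKD + Clodronate rats and 17.2 ± 0.673 in PKD + Controlliposomes rats. A lower Cq means more RNA, and the injected groups spread more widely than the uninjected ones. Without normalization *B2m* was higher by 0.35 in PKD compared to SD rats, by 0.35 in PKD + Clodronate compared to PKD rats and by 0.30 in PKD + Controlliposomes compared to PKD rats. Against SD rats the differences without normalization were 0.71 in PKD + Clodronate rats, of which 3 of 5 were above every SD rat, and 0.65 in PKD + Controlliposomes rats, of which 3 of 6 were.

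**Figure D2:**
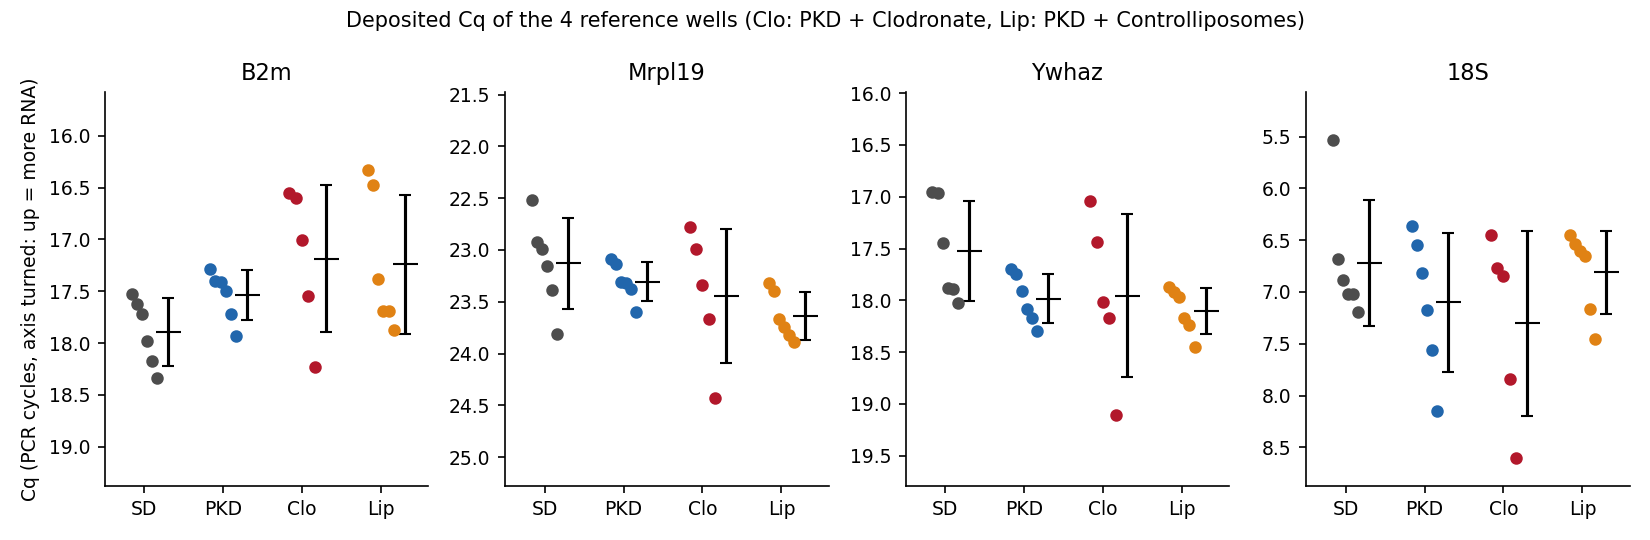
Deposited Cq in PCR cycles of the 4 reference wells, with the axis turned so that up is more RNA, for each rat and with the mean and standard deviation of each group. The mean Cq of *B2m* goes from 17.9 in SD rats to 17.2 in both injected groups, and 18S spreads over several cycles within the PKD + Clodronate group.

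The 3 wells that *B2m* was read against were compared in 12 two-sided exact permutation tests. *Mrpl19* relative to *Ywhaz* was 0.28 higher in PKD compared to SD rats (standard error 0.145), which gave the smallest of the 12 p-values, exact permutation p = 0.0823 and 0.422 after Benjamini–Hochberg adjustment. 18S relative to both differed by -0.065 between PKD and SD rats (exact permutation p = 0.833) and by 0.52 between PKD + Controlliposomes and PKD rats (standard error 0.326, exact permutation p = 0.141, adjusted 0.422). None of the 12 passed the threshold, with standard errors from 0.130 to 0.581 that leave room for differences as large as those of *B2m*.

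The choice of reference moved the *B2m* differences. With *Mrpl19* alone *B2m* was higher by 0.53 in PKD compared to SD rats, and with *Ywhaz* alone by 0.81, where all 6 PKD rats were above every SD rat (19.5% of the 41 other genes had no overlap on this scale). In PKD + Clodronate compared to PKD rats the difference was 0.49 with *Mrpl19* alone, where all 5 rats were above every PKD rat (4.88% of the 41 other genes had no overlap on this scale), and 0.32 with *Ywhaz* alone. In PKD + Controlliposomes compared to PKD rats the corresponding values were 0.63 and 0.42. With 18S added to both genes the differences were 0.69, 0.46 and 0.35 in the same order.

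Against the average Cq of those specific genes that were detected in all rats, the specific-gene mean, *B2m* was lower by 0.31 in PKD compared to SD rats (difference -0.31). It was higher by 0.28 in PKD + Clodronate and by 0.039 in PKD + Controlliposomes rats, both compared to PKD. By this scale the differences to SD rats were -0.022 for PKD + Clodronate and -0.27 for PKD + Controlliposomes. Most of the card consists of genes picked for inflammation and vascular loss, and this scale shifted every gene's PKD minus SD difference by -0.975. That mean holds a few genes with differences far above the median of 0.59, such as *Edn2* (4.76) and *Socs3* (4.37), and *B2m* with 0.67 was above this median though below the mean.

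**Figure D3:**
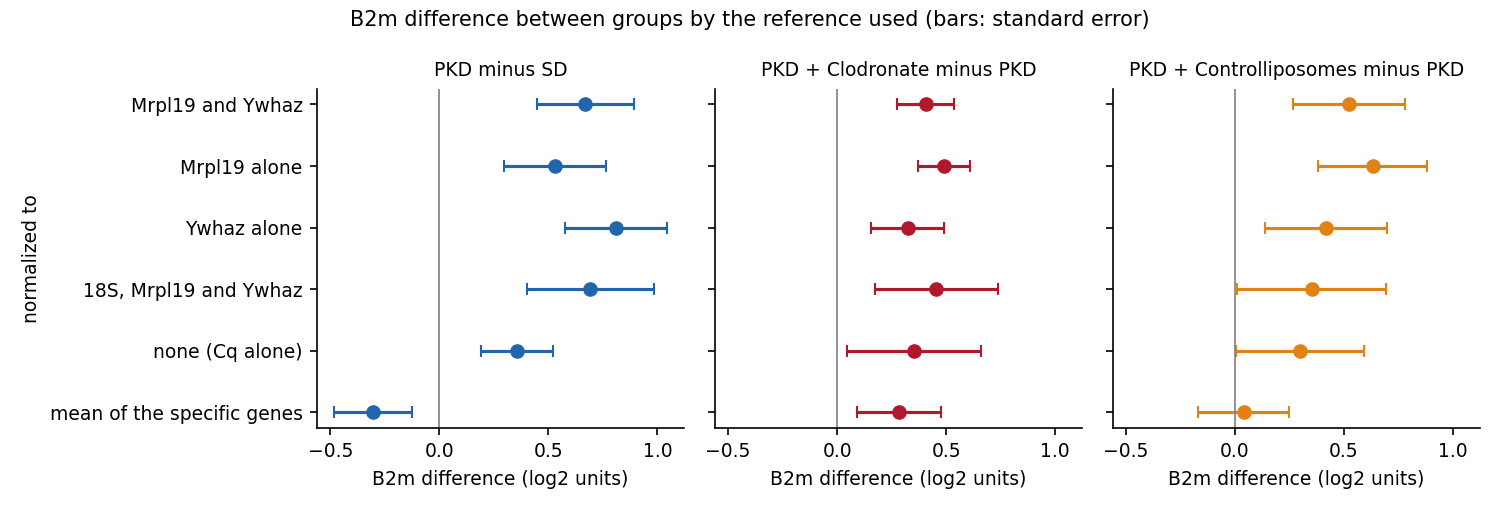
*B2m* difference between groups in log2 units under 6 ways of normalizing, with bars of 1 standard error computed from the spread within the 2 groups compared. All 3 differences of means are above 0 with each reference gene, while the specific-gene mean gives -0.31 in PKD minus SD and 0.039 in PKD + Controlliposomes minus PKD.

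*B2m* moved about as far as the middle gene of the card in the comparison of strains. Of the 41 other genes tested with limma, 15 rose in PKD compared to SD rats and none fell (adjusted p under 0.05, 36.6% called), and 35 had a positive difference, though with the specific-gene mean 24 were called, 7 higher and 17 lower. The median difference of the 41 genes was 0.59, and *B2m* with 0.67 was in place 19 of 42 from the highest. Genes of photoreceptor stress and reactive glia led, with 6 of 6 genes of that list risen and a list median of 3.03. Among them were *Edn2*, a peptide released by stressed photoreceptors (4.76, standard error 0.502, limma adjusted p = 9.98e-09), and *Gfap*, the filament protein of reactive Müller glia and astrocytes (2.77, standard error 0.311, limma adjusted p = 2.40e-08).

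**Figure D4:**
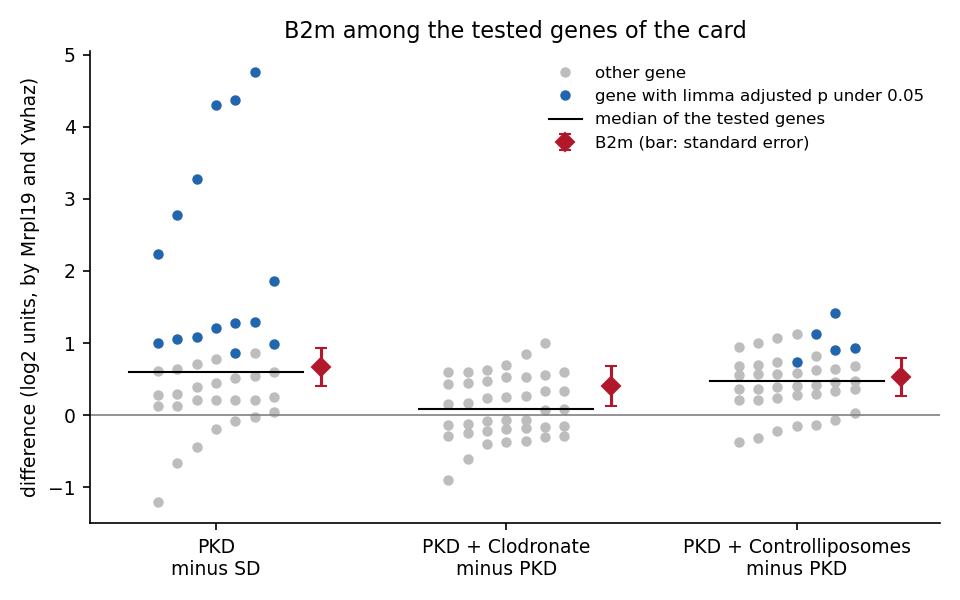
Difference in log2 units of each of 41 tested genes (points) and of *B2m* (diamond), relative to *Mrpl19* and *Ywhaz*, in 3 comparisons, with the median of the tested genes as a line. The bar of *B2m* is 1 standard error from the fit over all 4 groups. *B2m* lies near the median of 0.59 in PKD minus SD and of 0.48 in PKD + Controlliposomes minus PKD, and above the median of 0.085 in PKD + Clodronate minus PKD.

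In the list of antigen presentation and interferon gamma response, which *B2m* belongs to by function, 3 of 6 genes rose in PKD compared to SD rats, with a median of 0.90. They were *Socs3*, an inhibitor of cytokine signaling (4.37, standard error 0.357, limma adjusted p = 1.26e-10), *Icam1*, an adhesion molecule of endothelium and leukocytes (1.21, standard error 0.269, limma adjusted p = 0.000600), and *C3*, the central complement protein (1.29, standard error 0.327, limma adjusted p = 0.00211). *Cd74*, the invariant chain of MHC class II, differed by 0.046 (standard error 0.398, limma adjusted p = 0.909), with its sign turned when *Mrpl19* alone, all 4 reference genes, *B2m* or the specific-gene mean was used. The complement protease *C1s* differed by 0.59 (limma adjusted p = 0.156) and *Nos2*, the inducible nitric oxide synthase, by -0.44 (limma adjusted p = 0.521). *B2m*, with 0.67, lay between *C1s* and *Icam1*.

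Genes of microglia and macrophages gave 3 of 9 risen genes in PKD compared to SD rats and a median of 0.64. *Tyrobp*, a signaling adaptor of microglia, rose by 1.00 (standard error 0.265, limma adjusted p = 0.00265) and *Itgam*, the CD11b integrin, by 0.98 (standard error 0.236, limma adjusted p = 0.00128). *Lgals3* rose by 1.08 (standard error 0.324, limma adjusted p = 0.00761). The other genes of the list were not called. They were *Fcgr3a* (0.78), *C5ar1* (0.64), *Mrc1* (0.45), *Aif1* (0.27, limma adjusted p = 0.475), *Fcgr2a* (0.12) and *Trem2* (-0.19, limma adjusted p = 0.724). The summed linear level of 8 microglia markers, each relative to *Mrpl19* and *Ywhaz*, was 0.141 to 0.424 in SD rats and 0.328 to 0.464 in PKD rats. It was 0.347 to 0.650 in PKD + Clodronate rats and 0.535 to 0.996 in PKD + Controlliposomes rats, and every marker had a Cq in every rat. The median of this sum was 0.241, 0.448, 0.407 and 0.683 in the 4 groups in this order. A linear sum is weighted to the markers with the highest levels. In PKD rats these were *Tyrobp* (mean log2 level -2.34) and *Fcgr3a* (-3.59), while *Trem2* (-9.09) and *Fcgr2a* (-11.0) added little. The ranges of PKD and PKD + Clodronate rats overlapped, and the highest sum of the 2 groups was in a PKD + Clodronate rat. The part of these cells in the *B2m* level was not tested. The cards held no marker of photoreceptors or other neurons, so the retinal label could be checked against *Gfap* alone.

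Vascular genes gave 1 of 5 risen genes in PKD compared to SD rats, with a median of 0.55 that was below the 0.59 of all tested genes.

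In PKD + Clodronate compared to PKD rats, limma called 0 of 41 genes (0% called), with 4 at an unadjusted p under 0.05 and 0 called by exact permutation tests per gene. The median difference of the 41 genes was 0.085, and *B2m* with 0.41 was in place 14 of 42. The antigen presentation and interferon gamma list had a median of 0.59 with all 6 genes above 0, none of them called, beside 22 of the 41 genes above 0. The microglia list had a median of -0.067. *Cd74* differed by 0.60 (standard error 0.418, limma adjusted p = 0.498), *C1s* by 1.00 (standard error 0.350, limma adjusted p = 0.347) and *Icam1* by 0.24 (standard error 0.282, limma adjusted p = 0.709).

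In PKD + Controlliposomes compared to PKD rats, 5 of 41 genes rose and none fell (12.2% called), while by the specific-gene mean 3 were higher and 2 lower. The median difference was 0.48, and *B2m* with 0.52 was in place 21 of 42, the middle of the card. *C3* rose by 1.42 (standard error 0.327, limma adjusted p = 0.00775) and *Itgam* by 0.94 (standard error 0.236, limma adjusted p = 0.0105). *C1s* rose by 1.12 (standard error 0.334, limma adjusted p = 0.0325), and its call was lost without any 1 of 3 PKD or 3 control liposome-treated rats (limma adjusted p = 0.0562 to 0.0860). *Cd74* differed by 0.62 (standard error 0.398, limma adjusted p = 0.304). With 18S added to *Mrpl19* and *Ywhaz* none of these calls was kept.

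In PKD + Clodronate compared to PKD + Controlliposomes rats, 3 of 41 genes fell and none rose (7.32% called). They were *Aif1*, the microglial protein IBA1 (-1.19, standard error 0.292, limma adjusted p = 0.00827), *Itgam* (fell by 1.00, standard error 0.247, limma adjusted p = 0.00827) and *C5ar2*, a receptor of complement C5a named here after its values were seen (-1.02, standard error 0.312, limma adjusted p = 0.0409). Without 1 clodronate-treated rat, the one with the lowest *Aif1* level of its group, 0 genes were called. The call of *C5ar2* was also lost without any 1 of 8 rats (limma adjusted p = 0.0563 to 0.178). *B2m* had a difference of -0.12, beside a median of -0.27 over the 41 genes. Against SD rats, 53.7% of the 41 genes were called in PKD + Clodronate rats (21 higher or 51.2%, and 1 lower or 2.44%) and 63.4% in PKD + Controlliposomes rats (26 higher). By the specific-gene mean the calls were 9 higher and 13 lower in the former and 8 higher and 17 lower in the latter.

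*B2m* in the place of a reference gene took part of its own difference out of every other gene. When it was averaged with *Mrpl19* and *Ywhaz*, each other gene's difference was lowered by 0.22 in PKD compared to SD rats, by 0.14 in PKD + Clodronate compared to PKD rats and by 0.17 in PKD + Controlliposomes compared to PKD rats. As 1 of 4 reference genes, as the study's methods state, the amounts were 0.17, 0.10 and 0.13. Against SD rats the amounts with 3 reference genes were 0.36 in PKD + Clodronate and 0.40 in PKD + Controlliposomes rats.

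With *B2m* added to *Mrpl19* and *Ywhaz*, 15 genes were again called in PKD compared to SD rats, but 1 call was gained and 1 lost. The neurotrophin *Bdnf* was gained, with a difference of -0.66 (limma adjusted p = 0.0770) that became -0.89 (limma adjusted p = 0.0249). A call of 1 lower gene was not particular to *B2m* as a reference. In the same comparison 1 gene was called lower with *Mrpl19* alone, and 1 by exact permutation tests per gene. The cytokine *Il6* was lost, with 1.06 (limma adjusted p = 0.0306) that became 0.83 (limma adjusted p = 0.104), and it was also lost without any 1 of 2 SD or 2 PKD rats (limma adjusted p = 0.0723 to 0.112).

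In PKD + Controlliposomes compared to PKD rats, 2 of 5 calls were lost. The difference of *Aif1* went from 0.91 (limma adjusted p = 0.0326) to 0.73 (limma adjusted p = 0.104). That of *Sphk1*, a kinase that makes sphingosine 1-phosphate, went from 0.74 (limma adjusted p = 0.0498) to 0.56 (limma adjusted p = 0.104). With *Mrpl19* and *Ywhaz*, the call of *Aif1* was also lost without any 1 of 7 rats (limma adjusted p = 0.0540 to 0.0922) and that of *Sphk1* without any 1 of 9 rats (limma adjusted p = 0.0581 to 0.146).

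The comparisons with SD rats changed most, with 3 calls gained and 3 lost in each injected group. *Igf1*, a growth factor, had a difference of -0.25 in PKD + Clodronate rats (limma adjusted p = 0.444) and became lower with -0.61 (limma adjusted p = 0.0236). *Vegfa*, a growth factor of vessels, had -0.20 (limma adjusted p = 0.477) and became lower with -0.56 (limma adjusted p = 0.0410). In PKD + Controlliposomes rats *Igf1* went from -0.14 to -0.54 (limma adjusted p = 0.0263) and *Vegfa* from -0.25 to -0.65 (limma adjusted p = 0.0118). The other calls gained were *Fcer2* in PKD + Clodronate and *Nos2* in PKD + Controlliposomes rats. Those lost were *Il6*, *Tgfb1* and *Timp1* in the former and *C5ar1*, *Tgfb1* and *Tgfb2* in the latter.

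Within the groups, 37 of 41 genes had a positive correlation with *B2m* between rats, highest for *C5ar1* and *Tyrobp*. The likeness of each gene to *B2m* was the Pearson correlation over 23 rats after each group's mean was removed, given as a description, since all genes of a rat share 1 card, 1 RNA sample and the same reference genes. The 5 most alike were *C5ar1*, the receptor of C5a on phagocytes (r = 0.823), *Tyrobp* (r = 0.790), the cytokine *Il1b* (r = 0.758), the growth factor *Tgfb1* (r = 0.743) and the Fc receptor *Fcgr2a* (r = 0.727).

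*Cd74*, the other antigen presentation gene, followed with r = 0.711. Relative to the specific-gene mean its r was only 0.207, in place 16 of 41, and with 18S alone it was also in place 16. The 3 least alike were *Bdnf* (r = -0.163), the cytokine *Tnf* (r = -0.115) and the neurotrophic factor *Cntf* (r = -0.0532). Of the 9 genes of the microglia and macrophage list, 4 were among the first 10, and r in the list ran from 0.203 for *Aif1* over 0.504 for *Itgam* to 0.823 for *C5ar1*. *Gfap* had r = 0.383.

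**Figure D5:**
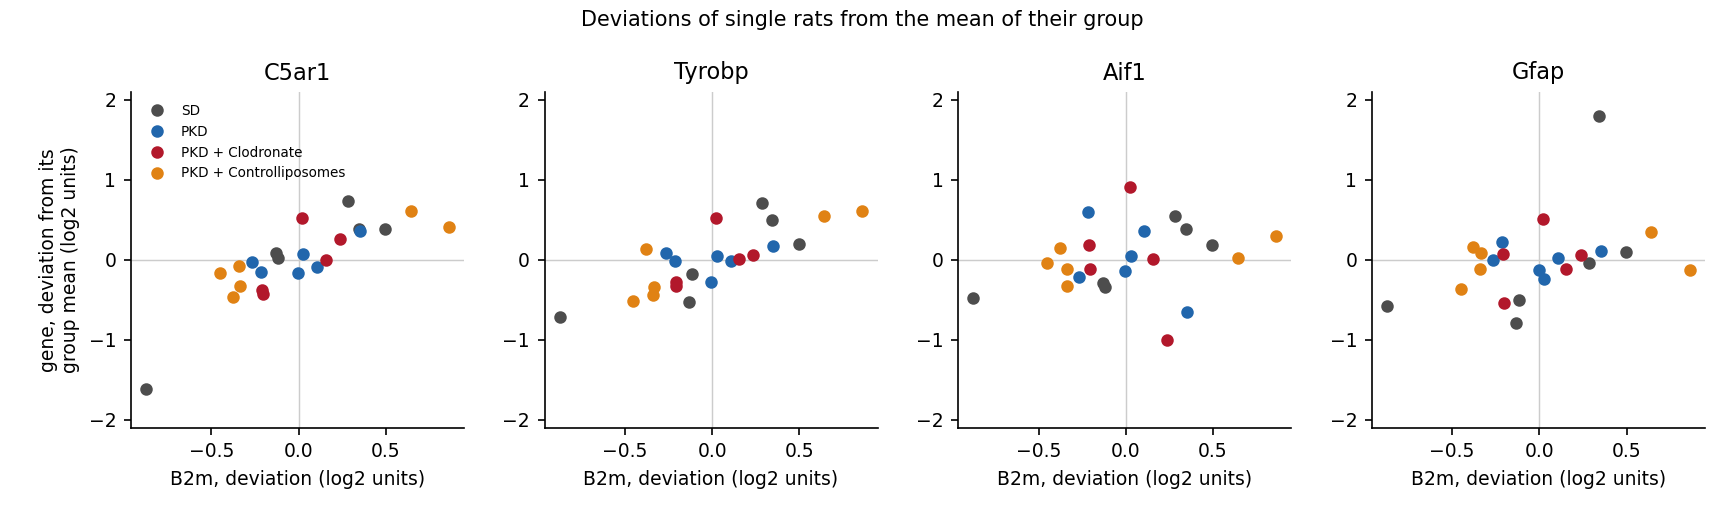
Deviation of single rats from the mean of their group for *B2m* (horizontal) and 4 other genes (vertical), both in log2 units, coloured by group. *C5ar1* and *Tyrobp* run along with *B2m* (r = 0.823 and 0.790 over 23 rats), while *Aif1* and *Gfap* scatter (r = 0.203 and 0.383).

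The median r over the 41 genes was 0.383. When levels were taken relative to the specific-gene mean, an alternative added after the data were seen, the median r was 0.0801 and 23 genes were above 0. The 5 genes named as most alike were also the first 5 on that scale, while 3 of them were among the first 5 with 18S alone. When *B2m* and the other gene were read against different reference genes, *Mrpl19* for one and *Ywhaz* for the other, it was also 3 of 5 in both arrangements. The *B2m* level also went along with 18S. In SD, PKD and PKD + Clodronate rats, the rat with the highest *B2m* level had the highest 18S Cq (7.19, 8.15 and 8.61). The control liposome-treated rats at 4.49 and 4.27 had 18S Cq values of 7.17 and 7.45, against 6.45 to 6.65 in the others. Whether differences between RNA samples underlie the correlations was not tested. The rats farthest from their group mean in *B2m* were 1 SD rat and 1 control liposome-treated rat. Without them r was 0.777 for *C5ar1*, 0.681 for *Tyrobp*, 0.587 for *Il1b*, 0.688 for *Tgfb1* and 0.683 for *Fcgr2a*, and *Il1b* then came after *Cd74*, *Stab1* and *Mrc1* among others. By list, the median r was 0.602 for antigen presentation and interferon gamma response, 0.577 for vascular genes, 0.504 for microglia and macrophages and 0.165 for photoreceptor stress and reactive glia. Relative to the specific-gene mean these medians were 0.131, 0.325, 0.0535 and -0.327, so both the size and the order of the lists depended on the scale.

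The 2 control liposome-treated rats with the highest *B2m* level were above the other 4 rats of their group in 14 of 41 genes. These included *C5ar1*, *Tyrobp*, *Il1b*, *Tgfb1*, *Fcgr2a*, *Cd74*, *Icam1* and *C1s*. Both rats also entered the correlations above, so the 2 results share values and are not independent. *Cd74* was at 0.60 and -0.20 in these 2 rats and between -1.30 and -0.23 in the other 4. *Aif1* did not set them apart, with -3.29 and -3.02 against -3.64 to -3.16.

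One SD rat had a *Gfap* level of -0.36, while the other 5 were between -2.95 and -2.06. This rat was also the highest SD rat in each other gene of the photoreceptor stress and reactive glia list. *Edn2* was at -4.80, against -9.91 to -6.81, and *Serpina3n* at -1.20, against -7.74 to -4.05. Its *B2m* level of 2.78 was within the range of the other SD rats, and its *Cd74* level of 0.11 was the highest of the group.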

How the data were processed

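RNA of single whole retinae (RNA integrity number above 7.5) was reverse transcribed, pre-amplified for 14 cycles and run on TaqMan cards of 44 specific and 4 reference genes for at most 40 cycles. The authors deposited Cq values per well, in PCR cycles before subtraction of reference genes, a unit other than counts or intensities. They also deposited fold changes of their own comparisons, which were not used. Wells were named by matching Cq values to the supplement's list (48 of 48 wells, tolerance 0.001 cycles), and groups came from its sample list; the columns do not say which replicate they are. A further 11 columns, with no group named, were not used, and comparisons with PBS-injected PKD or clodronate-treated SD rats were not analysed here. No Cq was read in 57 of 1104 wells, which were left out. A gene had a single well in each rat and the copies behind a Cq are unknown, so the number of rats, 5 or 6 in a group, limits the precision.

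Levels were the mean Cq of Mrpl19 and Ywhaz minus the Cq. The methods' 4 reference genes include B2m and were an alternative. The 41 genes with at least 3 Cq values in each group were fitted over the 4 groups with limma 3.58.1 (lmFit, eBayes, R 4.3.3), two-sided, with Benjamini–Hochberg adjustment over the 41 genes and a threshold of 0.05. B2m was in the fit for its standard error, with no p-value. Reference wells were compared by two-sided exact permutation tests (scipy 1.17.1, Python 3.11.15), and plots used matplotlib 3.10.9. The procedure was tested on simulated data. Promoter sequence came from RefSeq (GRCr8), where all 41 symbols matched. B2m, the gene lists, the rule for named genes (list members, reference wells, the 5 most and 3 least alike genes, genes whose call changed with B2m as reference) and the alternatives were chosen with earlier results of these data known. Alternatives were other references, treatments of empty and late wells, the rats and groups in the fit, and the test.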

Additional observations from a re-analysis of the deposited data

Results flagged for a closer look

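Among 92 sets of rats, 1 gene in 1 group each, 6 had a highest or lowest rat far from the others by Dixon's test at its 95% level, where chance gives about 1 in 20, or 4.6. None was in *B2m*. In SD rats, *C5ar1* was at -7.78 in 1 rat and at -6.14 to -5.42 in the others. The same rat had *Fcgr2a* at -12.9, against -11.0 to -10.5, and the lowest *B2m* level. Another SD rat had *Gfap* at -0.36, against -2.95 to -2.06. In PKD rats, *C1s* was at -3.08 in 1 rat, against -3.68 to -3.46, and *Tgfb1* was at -1.26 in another, the rat with the highest *B2m* level of its group, against -2.65 to -2.27. In PKD + Clodronate rats, *Il1b* was at -7.86 in 1 rat, against -7.23 to -7.08. The search covered only some of the card's genes, and genes outside it also had rats far from the others. *Mrc1* was at -7.73 in the SD rat with the lowest *B2m* level, against -5.94 to -5.06. *Fgf2* was at 0.59 in 1 PKD rat, against 0.92 to 1.06. *Tgfb2* was at 2.36 in 1 PKD + Controlliposomes rat, against 0.086 to 0.79. All values are levels relative to *Mrpl19* and *Ywhaz* on the log2 scale. The causes were not tested.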

How the results depend on the processing

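The *B2m* differences of means kept their direction with every reference gene tried for PKD minus SD, PKD + Clodronate minus PKD and PKD + Controlliposomes minus PKD, but for the latter the medians gave -0.089 with 18S added and -0.087 without normalization. By the specific-gene mean they were -0.31 for PKD minus SD, 0.039 for PKD + Controlliposomes minus PKD, -0.022 for PKD + Clodronate minus SD and -0.27 for PKD + Controlliposomes minus SD. Leaving out each rat gave 0.495 to 0.770 for PKD minus SD, 0.347 to 0.476 for PKD + Clodronate minus PKD, 0.353 to 0.615 for PKD + Controlliposomes minus PKD and -0.209 to 0.0532 for clodronate minus control liposomes. Against SD rats it gave 0.901 to 1.18 for PKD + Clodronate and 1.02 to 1.29 for PKD + Controlliposomes. Genes called in PKD minus SD were 24 by the specific-gene mean and 14 to 20 without single rats. In PKD + Clodronate minus PKD they were 2 by the specific-gene mean, 1 with empty wells set to 40 and 1 with only these groups fitted, and 0 to 0 without single rats. In PKD + Controlliposomes minus PKD they were 3 with *B2m* added, 0 with 18S added, 1 with all 4 reference genes, 13 with *Mrpl19* alone, 1 with *Ywhaz* alone, 15 with only these groups fitted, 12 by exact permutation and 2 to 5 without single rats, where 7 of the rats of these groups, 3 control liposome-treated and 4 untreated, took it to 2 or 3. Between the liposome groups they were 0 with 18S added and 0 to 7 without single rats, 0 and 7 each without 1 clodronate-treated rat. Against SD rats they were 20 to 24 (clodronate) and 25 to 29 (control liposomes). 18S relative to *Mrpl19* and *Ywhaz* in PKD minus SD was 0.075 with *Ywhaz* alone. Without single rats it was -0.207 to 0.0828 in PKD minus SD, -0.530 to 0.164 in PKD + Clodronate minus PKD, 0.370 to 0.672 in PKD + Controlliposomes minus PKD, -1.05 to -0.354 between the liposome groups, and -0.595 to 0.0989 and 0.341 to 0.607 against SD rats. *Mrpl19* relative to *Ywhaz* was 0.208 to 0.381, -0.245 to -0.102, -0.290 to -0.138, -0.0331 to 0.124, 0.0353 to 0.215 and -0.00907 to 0.168 in the same order. The median r with *B2m* was 0.84 with 18S alone, 0.080 by the specific-gene mean and 0.296 to 0.443 without single rats. *Cd74* in PKD minus SD was -0.18 with *B2m* added, -0.11 with all 4 reference genes, -0.094 with *Mrpl19* alone, -0.93 by the specific-gene mean and -0.297 to 0.285 without single rats. By the specific-gene mean *C1s* was -0.38 and *C5ar1* -0.33 in PKD minus SD. *Igf1* in PKD + Controlliposomes minus SD was -0.336 to 0.0165 without single rats, above 0 without 1 SD rat. The causes were not tested. No paired analysis was possible because the columns carry no replicate numbers, and the planned replicate block was not run.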
